A study of Arabidopsis thaliana with 8 samples.

Results

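The MBD7 locus on chromosome 5 of Arabidopsis thaliana, with the adjoining gene SBT5.4, was followed through 8 libraries of a Myc chromatin immunoprecipitation study of seedlings 14 days old. Members were the windows of 1000 bp, starting every 500 bp, that overlap MBD7 (AT5G59800), SBT5.4 (AT5G59810) or the 10 kb on each side, which gave 55 windows of 238296 in TAIR10, from chr5:24083501-24111500. Of these, 7 lay over MBD7 and 10 over SBT5.4, with 2 over both genes, and 40 lay over neither. The other genes within 10 kb numbered 6. Neighbouring windows overlap by 500 bp and share reads, so they are not independent measurements.

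MBD7 belongs to the methyl-CpG-binding domain family, some of whose members can recognise methylated cytosines in CG sites. In Arabidopsis it is known to act with IDM1, a histone acetyltransferase, with the alpha-crystallin domain proteins IDM2 and IDM3, and with the DNA demethylase ROS1 in active DNA demethylation, which limits the silencing of some transgenes and endogenous genes. SBT5.4 encodes a subtilase, a serine protease of the subtilisin type. A line that carries an added genomic MBD7 construct holds the sequence of that construct both at the native locus and in the transgene, and window counts cannot tell these copies apart.

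The 4 groups held 2 libraries each. MBD7 ChIP and MBD7 input came from the line MBD7-5, labelled proMBD7::gMBD7:4xMYC, in which genomic MBD7 with 4 Myc tags is driven by the MBD7 promoter. WT ChIP and WT input came from plants labelled WT and named 35S-SUC2 after a transgene, which have no tagged MBD7. Whether line MBD7-5 also carries the SUC2 transgene, how many insertions it has and whether they are homozygous are not given in the labels. The sample labels name a Millipore Myc antibody for MBD7 ChIP and an Invitrogen one for WT ChIP, whereas the extraction protocol gives Invitrogen alone. If the antibodies did differ, antibody and genotype cannot be told apart in comparisons between these groups. No label says that replicates were separate cultures, so the p-values below reflect a spread among libraries that may be technical only. Totals were 25846940 and 23761267 counts in MBD7 ChIP, 26739116 and 19224696 in MBD7 input, 7450486 and 4971029 in WT ChIP, and 31459707 and 24679699 in WT input. These are sums over overlapping windows, so a read can count in more than 1 window. In windows that do not overlap, replicate 1 of MBD7 ChIP held 12941569 counts. The shallow WT ChIP libraries had medians of 4 and 3 counts per window over the genome, and their correlation with each other over windows (r = 0.624) was the lowest of the 4 groups.

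MBD7 input was set against WT input first, which asks how many copies of the locus the tagged line holds. A single run of 9 windows, chr5:24094001-24099000, was raised in MBD7 input. The run was set as the member windows called higher in this comparison, so all 9 passed by definition. Adjusted p ran from 3.75e-18 to 1.36e-08 (edgeR quasi-likelihood test, Benjamini-Hochberg), with log2 differences from 1.75 to 3.65. The ratios and copies below use the same windows. None of the 55 members was lower. Over all windows tested, 0.0107% were called higher and 0.00901% lower in this comparison. The 9 windows ranked between 1 and 11 by log2 difference among 232963 windows. Outside the run, none of the 46 member windows could be a higher call by that definition, and none was called lower. Of these 46, 6 had an unadjusted p under 0.05, and DESeq2 called none of them.

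The window with the largest difference, chr5:24096001-24097000, overlaps both genes. It held 542 and 397 counts in MBD7 input, against 42 and 37 counts in WT input. The log2 difference was 3.65 ± 0.20 (SE). The window with the most counts, chr5:24097001-24098000 over SBT5.4, held 983 and 736 counts in MBD7 input, against 104 and 102 counts in WT input. In both windows the MBD7 input libraries lay far above the WT input libraries, with no overlap. Over the 9 windows the counts ran from 191 to 983 and from 112 to 736 in MBD7 input, against 42 to 111 and 37 to 102 in WT input.

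The edges of the run were steep. The first raised window, chr5:24094001-24095000, held 191 and 112 counts in MBD7 input, against 46 and 48 in WT input. The window before it, chr5:24093501-24094500, which also overlaps MBD7, held 33 and 18 counts in MBD7 input, against 22 and 25 in WT input. On the other side the last raised window, chr5:24098001-24099000, held 275 and 192 counts in MBD7 input, against 73 and 40 in WT input. The window after it, chr5:24098501-24099500, held 42 and 44 counts in MBD7 input, against 65 and 35 in WT input, so the groups overlapped again within 500 bp of the last raised window.

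To remove differences in depth, counts were divided by the mean of the outer flanks, the 32 member windows over 2 kb from both genes, within each library. The ratio of MBD7 input to WT input on this scale was 3.05 in the first raised window, 11.6 at its peak and 4.10 in the last raised window. It was 1.02 in the window before the run and 0.884 in the window after it, and between 0.681 and 1.64 in the outer flanks, with a median of 1.03. The first window reached 28.3% and the last 42.7% of the rise between the flanks and the mean of the 7 interior windows, a ratio of 8.25. The interior windows ran from 6.11 to 11.6, so this mean is no flat plateau. If a raised window holds raised sequence in proportion to that rise, the borders fall at positions 24094718 and 24098427, a length of 3710 bp. The left border then lies within the annotated span of MBD7 and the right border within that of SBT5.4. The lengths were 3760 bp from replicate 1 of MBD7 input alone and 3661 bp from replicate 2 alone. With the plateau taken from the 3 interior windows next to each edge the length was 3761 bp. These borders rest on windows of 1000 bp and on fragments of about 500 bp, and no junction reads were analysed here.

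**Figure D1:**
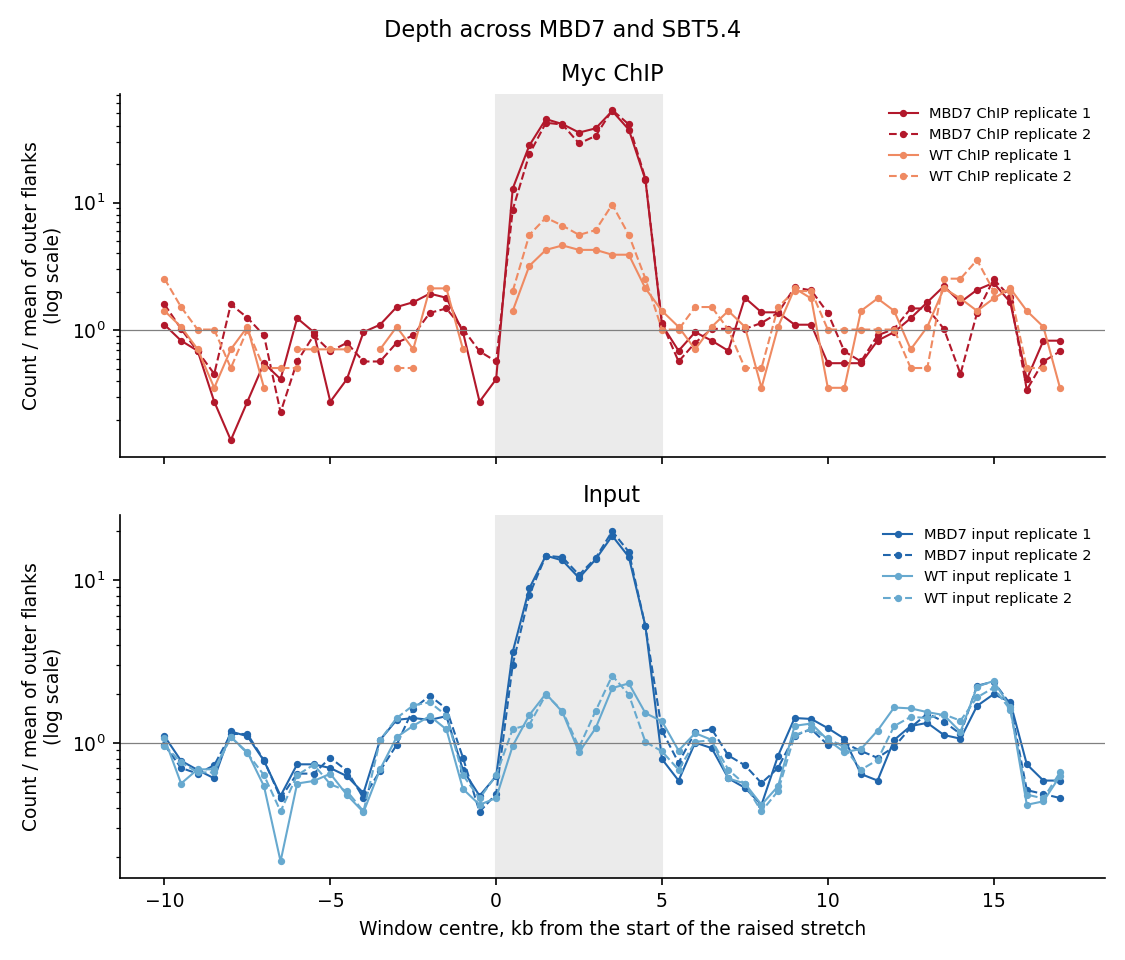
Counts per window over the mean of the outer flanks of the same library (vertical axis, log scale) against the distance of the window's centre from the start of the raised stretch in kb (horizontal axis), with ChIP libraries in the upper panel and input libraries in the lower one. The shaded band is the raised stretch, and windows with 0 counts are gaps. The raised stretch stands at 32.9 times the flanks in MBD7 ChIP and 4.63 times in WT ChIP, and at 11.4 times in MBD7 input and 1.57 times in WT input, and the step ends at the same windows in MBD7 ChIP and MBD7 input.

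Averaged over the 9 windows, the ratio of the stretch to the outer flanks was 11.2 and 11.5 in MBD7 input, a mean of 11.4 ± 0.170 (SD, n = 2). It was 1.57 in both WT input libraries, with an SD of 0.0033 (n = 2). Counted in windows that do not overlap, the ratios with exact 95% intervals were 10.2 (9.43 to 11.0) and 10.1 (9.24 to 11.1) in MBD7 input, against 1.49 (1.32 to 1.70) and 1.50 (1.31 to 1.72) in WT input. These intervals cover counting error only. The division of the means gave 7.23 ± 0.108 copies (SD over the 2 MBD7 input libraries) for each copy in WT input, or 6.23 beyond the native one. This average holds the first and last windows, which reached only 28.3% and 42.7% of the rise. It therefore lies below the value of the interior windows. The interior windows alone gave 7.95, with single windows from 6.11 to 11.6, and the flanks from 10 to 100 kb gave 7.72. The value of 7.95 divides mean depths, whereas the 8.25 above is a mean of the ratios of single windows. The SD does not cover the choice of windows or flanks. This depth is an average over the plants pooled, and is no count of insertions.

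Summed over the windows of each gene and scaled by TMM factors to cpm, a count relative to the scaled library total, MBD7 had 95.7 and 95.4 cpm in MBD7 input, against 12.1 and 12.8 cpm in WT input. The log2 difference was 2.94 ± 0.15 (SE; adjusted p = 3.26e-09), ranked 1 of 37898 genes. SBT5.4 had 97.6 and 104 cpm in MBD7 input, against 18.6 and 17.2 cpm in WT input, a log2 difference of 2.49 ± 0.15 (SE; adjusted p = 2.07e-08), ranked 2. At the level of genes 0.00528% were called higher and 0.00528% lower. The sum for MBD7 has 6 raised windows and 1 outside the run, and that for SBT5.4 has 5 raised windows and 5 beyond it, so the sum for SBT5.4 averages a raised and an unraised part of the gene. The 2 sums share 2 windows.

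The 5 windows of SBT5.4 beyond the run stood at 0.887 ± 0.0392 of the outer flanks in MBD7 ChIP, 0.910 ± 0.175 in MBD7 input, 1.18 ± 0.0575 in WT ChIP and 0.938 ± 0.105 in WT input (SD, n = 2 each). None of the 5 was called in any comparison, which for higher calls between the inputs follows from how the run was set. There was 1 unadjusted p under 0.05, in MBD7 ChIP against MBD7 input. By these ratios the raised depth of SBT5.4 was confined, among its 10 windows, to the 5 next to MBD7.

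MBD7 ChIP was then set against MBD7 input, in which the copies of the line stand on both sides. All 9 windows of the stretch were higher in MBD7 ChIP, with log2 differences from 0.86 to 1.13 and adjusted p from 1.27e-07 to 1.76e-05 (edgeR). Of all windows, 18.1% were called higher and 6.19% lower, and the 9 windows ranked no higher than 31576 of 232963. The window chr5:24097001-24098000 held 376 and 464 counts in MBD7 ChIP, against 983 and 736 in MBD7 input, where totals were of like size. Its raw counts were thus lower in MBD7 ChIP, and it was higher only relative to the other windows: the outer flanks held medians of 6.5 and 8 counts in MBD7 ChIP, against 55 and 34 in MBD7 input. The log2 difference of this window was 0.92 ± 0.17 (SE). The direction rests on that scaling. Scaled by library size alone, all 55 member windows were lower in MBD7 ChIP, as was the median window of the genome by a log2 difference of -2.15, and the log2 differences of the stretch ran from -1.20 to -0.94.

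Within libraries, which needs no scaling between them, the stretch stood at 33.9 and 31.9 times the outer flanks in MBD7 ChIP, against 11.2 and 11.5 times in MBD7 input. In windows that do not overlap the exact 95% intervals were 25.8 to 37.9 and 24.8 to 35.3 in MBD7 ChIP, against 9.43 to 11.0 and 9.24 to 11.1 in MBD7 input. The libraries did not overlap, and MBD7 ChIP stood 2.90 times higher. With flanks from 10 to 100 kb it stood 2.20 times higher. With 2 libraries a group an exact permutation test cannot pass the threshold, and none was run. Across the 9 windows the ratio of MBD7 ChIP to MBD7 input, each over its flanks, was even, from 2.64 to 3.26 with a median of 3.04, and the window next to the run on the left had 3 and 5 counts in MBD7 ChIP, against 33 and 18 in MBD7 input.

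MBD7, as a gene, had 207 and 203 cpm in MBD7 ChIP, against 95.7 and 95.4 cpm in MBD7 input, a log2 difference of 1.10 ± 0.14 (SE; adjusted p = 2.37e-06, edgeR), which ranked 4084 of 37898 genes. SBT5.4 had 187 and 200 cpm in MBD7 ChIP, against 97.6 and 104 cpm in MBD7 input, a log2 difference of 0.94 ± 0.14 (SE; adjusted p = 1.8e-05). All 5 windows of SBT5.4 beyond the stretch lay below 0, from -0.81 to -0.21, so its sum was higher through the stretch alone. Of all genes, 16.8% were higher and 13.4% lower. By library size alone the log2 differences were -0.32 for MBD7 and -0.47 for SBT5.4, beside a median of -1.57 over all genes. Among the 46 windows outside the stretch none was higher and 1 was lower: chr5:24104001-24105000, with 4 and 6 counts in MBD7 ChIP, against 56 and 37 in MBD7 input, had a log2 difference of -1.25 and an adjusted p of 0.0189. That call was lost with DESeq2, without replicate 1 of MBD7 ChIP (-1.05) and without replicate 2 (-1.51). In the outer flanks the window with the highest log2 difference was chr5:24089501-24090500 at 0.12 ± 0.47 (SE), and the one with the lowest was chr5:24085001-24086000 at -1.32 ± 0.53 (SE; adjusted p = 0.0621). Of all 46 windows outside the stretch 4 lay above 0 and 42 below it. The highest, chr5:24101501-24102500, is nearer the genes, at 0.85 ± 0.40 (SE; adjusted p = 0.119, edgeR). It held 10 and 10 counts in MBD7 ChIP, against 22 and 21 in MBD7 input. Its ratio of MBD7 ChIP to MBD7 input, each over its flanks, was 2.57, beside 2.64 to 3.26 in the stretch.

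MBD7 ChIP against WT ChIP compared the precipitation with and without a tagged protein, with the copies of the line not taken out. The 9 windows of the stretch were again higher and no member was lower. The log2 differences ran from 2.57 to 3.03 (adjusted p from 3.08e-11 to 5.95e-06, edgeR), beside 5.78% of all windows called higher and 0.491% lower. Between the inputs the same windows had log2 differences from 1.75 to 3.65. The window chr5:24096001-24097000 held 255 and 254 counts in MBD7 ChIP, against 12 and 11 in WT ChIP. The window chr5:24097001-24098000 held 376 and 464 counts in MBD7 ChIP, against 11 and 19 in WT ChIP. Over the stretch the ratio to the outer flanks was 32.9 ± 1.38 in MBD7 ChIP, against 4.63 ± 1.52 in WT ChIP (SD, n = 2 each). This is a ratio of 7.11, beside 7.23 between the inputs. The interior windows gave 7.18, beside 7.95 between the inputs. The WT ChIP libraries stood apart at 3.56 and 5.70, so the ratio between the ChIP groups is only loosely set.

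MBD7 had 207 and 203 cpm in MBD7 ChIP, against 27.5 and 37.9 cpm in WT ChIP, a log2 difference of 2.67 ± 0.17 (SE; adjusted p = 1.67e-08, edgeR). SBT5.4 had 187 and 200 cpm in MBD7 ChIP, against 30.1 and 40.2 cpm in WT ChIP, a log2 difference of 2.48 ± 0.17 (SE; adjusted p = 2.22e-08). Here too the 5 windows of SBT5.4 beyond the stretch lay below 0, from -0.78 to -0.20. Of all genes, 8.93% were higher and 3% lower in this comparison. Of the 46 windows outside the stretch none was called, and 1 had an unadjusted p under 0.05. In 3 member windows, all left of the stretch, both WT ChIP libraries held 0 counts, which allows up to 3 counts a library, and no fold is given for them. The lowest log2 difference in the outer flanks was -1.51 ± 0.90 (SE) in chr5:24109501-24110500, with 3 and 3 counts in MBD7 ChIP, against 4 and 1 in WT ChIP.

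**Figure D2:**
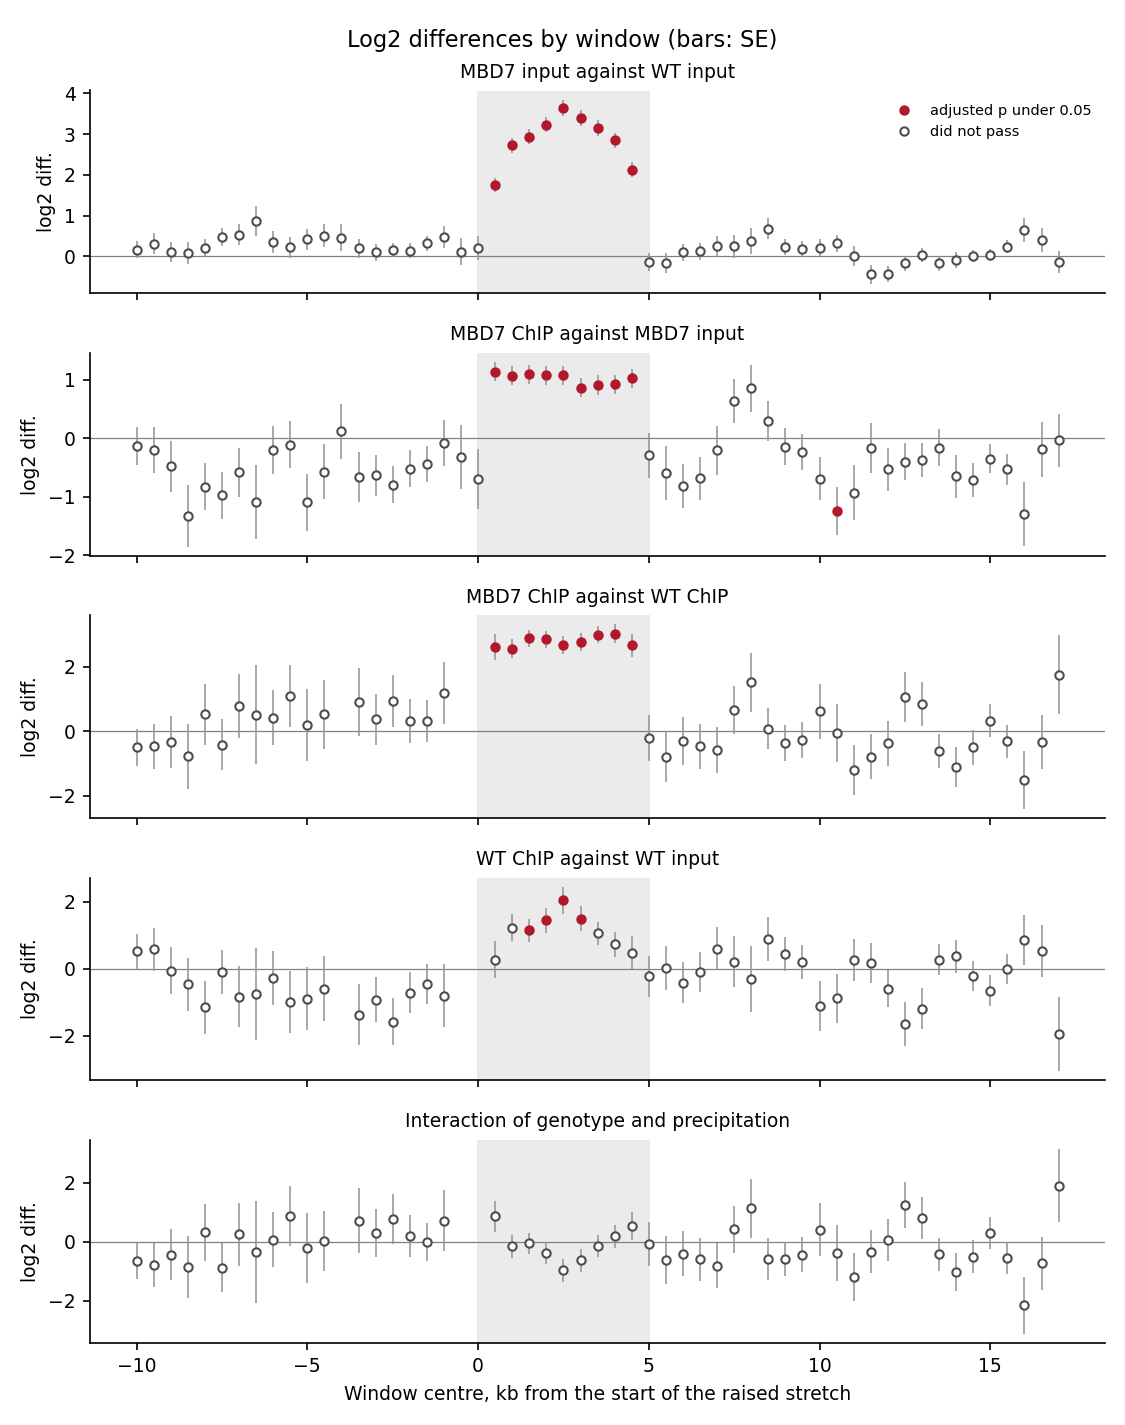
Log2 difference with its SE (bars) for each member window (vertical axis) against the distance of the window's centre from the start of the raised stretch in kb (horizontal axis), with 1 panel for each comparison; filled points passed an adjusted p of 0.05, and windows with 0 counts in both WT ChIP libraries are left out where WT ChIP enters. The 9 windows of the stretch, which was set by the calls of the first panel, are called in the first 3 panels, 4 of them in WT ChIP against WT input, and none in the interaction.

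WT ChIP against WT input gave the background of the precipitation, since these plants hold no tagged MBD7. The stretch was raised there too. In 4 of its 9 windows WT ChIP was higher than WT input (edgeR), beside 5.13% of all windows called higher and 0.456% lower. No member window was lower. The window chr5:24096001-24097000 held 12 and 11 counts in WT ChIP, against 42 and 37 counts in WT input, whose totals were several times larger. Its log2 difference was 2.05 ± 0.40 (SE; adjusted p = 0.000236). The other 3, chr5:24095001-24096000, chr5:24095501-24096500 and chr5:24096501-24097500, had log2 differences of 1.15, 1.44 and 1.49, and the 5 that did not pass had values from 0.27 to 1.23. The count of called windows was 2 without replicate 1 of WT ChIP, 1 without replicate 2 and 2 without replicate 1 of WT input. With DESeq2 it was 6, and with library size alone it was 0, with 43 members lower.

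Within libraries the stretch stood at 3.56 and 5.70 times the outer flanks in WT ChIP, against 1.57 in both WT input libraries. In windows that do not overlap, 45 and 54 counts fell in 5 windows of the stretch and 47 and 35 in 16 of the flanks of the WT ChIP libraries, which gives ratios of 3.06 (1.99 to 4.71) and 4.94 (3.17 to 7.78), against 1.49 (1.32 to 1.70) and 1.50 (1.31 to 1.72) in WT input (exact 95% intervals). Neither WT ChIP interval overlapped those of WT input. The ratio of WT ChIP to WT input over the stretch was 2.94, and that of MBD7 ChIP to MBD7 input was 2.90. In the interior windows these were 3.19 and 2.88. With the WT ChIP libraries apart at 3.56 and 5.70, the ratio of WT ChIP to WT input is only loosely set. WT ChIP was shallow, and the stretch held between 4 and 13 counts a window in replicate 1 and between 4 and 19 in replicate 2.

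Across the stretch the ratio of WT ChIP to WT input, each over its flanks, ran from 1.58 to 5.42 on these low counts. It was 1.58 in the first window, 5.42 in chr5:24096001-24097000 and 1.84 in the last window. The ratio of MBD7 input to WT input had its lowest values, 3.05 and 4.10, in the same first and last windows, and its highest, 11.6, in the same window in the middle. These 2 ratios share WT input as divisor, and in the stretch WT input was lowest in that middle window, at 0.909 of its flanks. Before that division WT ChIP and MBD7 input were highest in chr5:24097001-24098000, at 6.78 and 19.3 times their flanks. The shared peak is thus partly built in. The window before the stretch held 0 and 0 counts in WT ChIP, and the window after it held 4 and 2 counts in WT ChIP, against 65 and 35 in WT input. The windows of the stretch were set by the inputs, and no border was derived from WT ChIP. The windows called in WT ChIP against WT input all lay inside the stretch. The first and last windows of the stretch did not pass there, at log2 differences of 0.27 and 0.48. Their ratios of 1.58 and 1.84 lay within the range of the outer flanks, from 0 to 2.14. Whether any DNA from line MBD7-5 is in the WT ChIP libraries was not tested.

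**Figure D3:**
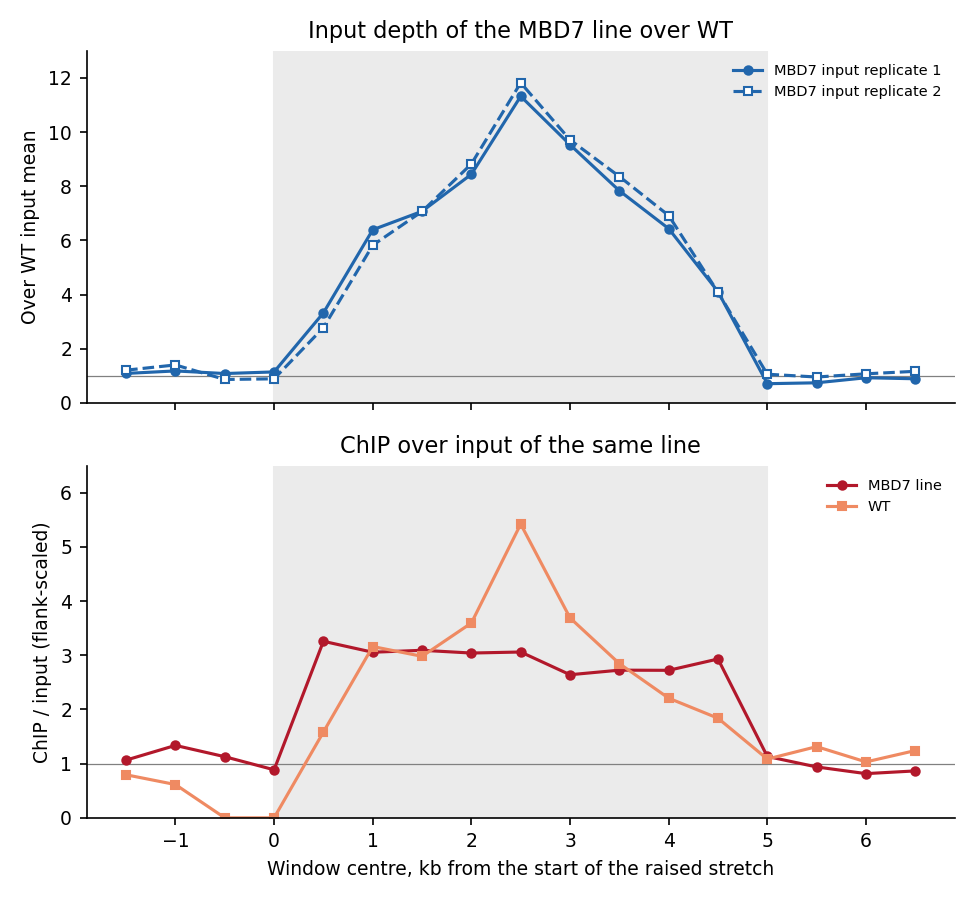
Upper panel: count per window in each MBD7 input library over the mean of WT input, each first divided by its outer flanks, against the distance of the window's centre from the start of the raised stretch (shaded) in kb. Lower panel: ChIP over input for line MBD7-5 and for WT on the same scale, as ratios of group means. The input ratio peaks at 11.6 and the WT ratio of ChIP to input at 5.42 in the same window, while that of line MBD7-5 stays between 2.64 and 3.26 in the stretch. The first 2 of these ratios share WT input as divisor, which was lowest in the stretch in that window.

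**Figure D4:**
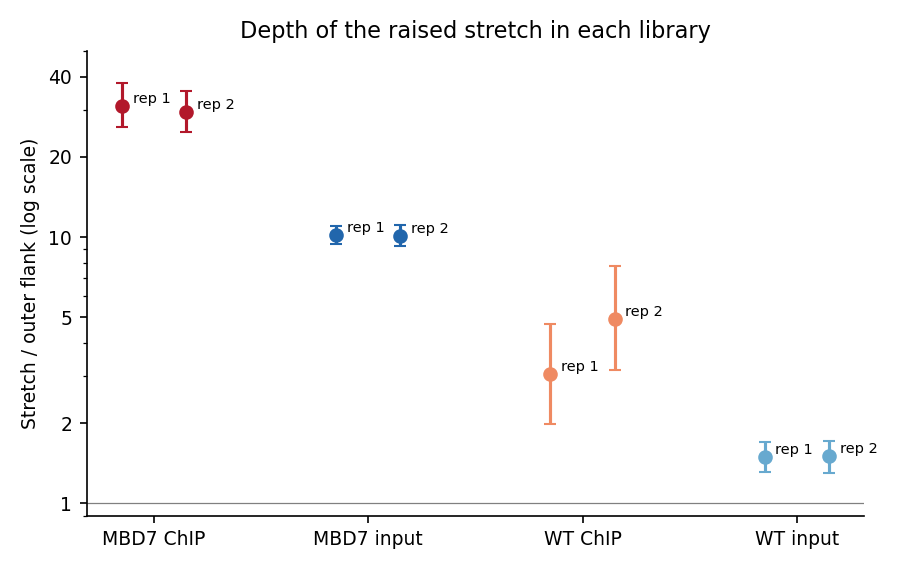
Ratio of the mean count per window in the raised stretch to that in the outer flanks (vertical axis, log scale) for each library, by group, from windows that do not overlap, with exact 95% counting intervals as bars. MBD7 ChIP lies at 31.1 and 29.5, MBD7 input at 10.2 and 10.1, WT ChIP at 3.06 and 4.94 and WT input at 1.49 and 1.50.

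By gene, MBD7 had 27.5 and 37.9 cpm in WT ChIP, against 12.1 and 12.8 cpm in WT input, a log2 difference of 1.38 ± 0.19 (SE; adjusted p = 6.11e-05, edgeR). SBT5.4 had 30.1 and 40.2 cpm in WT ChIP, against 18.6 and 17.2 cpm in WT input, a log2 difference of 0.96 ± 0.18 (SE; adjusted p = 0.00157). Of its 5 windows beyond the stretch 2 lay above 0 and 3 below it, from -0.41 to 0.61. Of all genes, 7.62% were higher and 1.63% lower. Both genes were called in each fit that left out 1 library, and with library size alone neither was, at log2 differences of 0.29 and -0.13.

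The interaction of genotype and precipitation asked whether MBD7 ChIP exceeded its input by more than WT ChIP exceeded its own. No member window passed in either direction (edgeR), while 6.54% of all windows were higher and 0.573% lower. An unadjusted p under 0.05 was reached by 3 of the 55, and DESeq2 called 0. In the stretch the log2 values ran from -0.97 to 0.86, with 3 windows above 0 and 6 below it. MBD7 had a value of -0.28 ± 0.23 (SE; 95% interval -0.75 to 0.20, adjusted p = 0.508), and SBT5.4 one of -0.01 ± 0.22 (SE; 95% interval -0.47 to 0.45, adjusted p = 0.985), where 8.86% of genes were higher and 2.34% lower. These intervals leave room for an excess of up to 0.20 and 0.45 on the log2 scale, or for a deficit. Since WT ChIP is itself raised over this stretch, this comparison does not give a background free of that rise. The comparisons share libraries with each other, so their values are not independent.

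The sequence around the construct gave no call between the inputs. All 6 neighbours, among them RHL41 (known as ZAT12), a zinc finger protein of stress responses, and 2 long noncoding RNA genes, AT5G08930 and AT5G08935, had log2 differences from -0.20 to 0.47 in MBD7 input against WT input. None had an unadjusted p under 0.05, and the median was 0.20, beside -0.01 over all genes. In MBD7 ChIP against MBD7 input, 1 of 6 was lower, AT5G59840, at -0.44 ± 0.16 (SE; adjusted p = 0.0436), beside 13.4% of all genes called lower. The call was lost in every fit that left out 1 library, where the value lay between -0.52 and -0.22. In the outer flanks the highest and lowest log2 differences between the inputs were 0.87 ± 0.37 in chr5:24087001-24088000 and -0.45 ± 0.24 in chr5:24105001-24106000 (SE; adjusted p = 0.575 and 0.711).

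Outside the locus, genes of the same family and pathway were not called between the inputs. Of 12 further methyl-CpG-binding genes, 4 partners of MBD7 and 5 subtilases of the SBT5 group, 0 were called in MBD7 input against WT input, none had an unadjusted p under 0.05, and the family ranged from -0.24 to 0.24. In MBD7 ChIP against MBD7 input, 2 of 12 family genes were higher and 4 lower, with a median of -0.13 beside -0.15 over all genes, of which 16.8% were higher and 13.4% lower. Without replicate 1 of MBD7 input 5 of these 6 lost their call, all but MBD11. MBD13 stood at 0.90 ± 0.20 and MBD11 at -0.74 ± 0.17 (SE). MBD13 was at 0.88 without replicate 1 of MBD7 input, and MBD11 lost its call without replicate 2 of MBD7 ChIP (-0.55). MBD13 was also higher in WT ChIP than in WT input, at 0.75 ± 0.22 (SE; adjusted p = 0.0434, edgeR), a call lost in 5 of 8 fits that left out 1 library, with 0.0002 without replicate 1 of WT ChIP. Its interaction was 0.15 ± 0.30 (SE; adjusted p = 0.814). Among the SBT5 genes 1 was higher, AIR3 at 0.93 ± 0.13 (SE), and 2 were lower, AT1G20150 and AT5G45640, beside the same shares of all genes. Both of these lost their call without replicate 1 of MBD7 ChIP, at -0.24 and -0.45, and without either replicate of MBD7 input. None of the 4 partners IDM1, IDM2, IDM3 and ROS1 was called in any of the 5 comparisons, and their values in MBD7 ChIP against MBD7 input ran from -0.31 to 0.30, with 1 unadjusted p under 0.05.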

How the data were processed

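The authors deposited raw read counts, as whole numbers without normalization, for windows of 1000 bp every 500 bp. The submitters' processing notes list TAIR10 and the tools Bowtie2, SAMtools and featureCounts. Not given in the sources used here are the tools' versions, any removal of duplicates and how reads with several alignments were counted. The table held 0 columns of other samples. Chromatin was sonicated to about 500 bp, per the labels' protocols.

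Member windows and gene spans were matched through RefSeq's gene table (assembly TAIR10.1), whose coordinates are not printed. It holds no sequence, and no sequence is shown. A gene's count adds up every window over it, so reads shared by overlapping windows count more than once, and adjoining genes share counts. All 8 libraries entered 1 model in edgeR 4.0.16 (R 4.3.3), after filterByExpr and with TMM scaling. The 5 comparisons were contrasts of that model, tested two-sided by quasi-likelihood with Benjamini-Hochberg adjustment over all 232963 windows or 37898 genes at 0.05. TMM factors of windows ran from 0.447 to 2.08, apart between ChIP and input. TMM takes most windows as unchanged, so log2 differences are relative to them. Ratios to flanks used counts within a library, with 95% exact intervals for counting error. The borders were interpolated from the partial rise of the first and last window. DESeq2 1.42.0, other scalings, no low-count filter, a fit of the groups compared, a replicate block and leaving out each library were alternatives. The model was also run on simulated counts with known changes. These gave all libraries the same spread and a profile drawn from the inputs, so they do not cover the wider spread of WT ChIP. Ratios and figures were made in Python 3.11.15 with pandas 2.3.3 and matplotlib 3.10.9.

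Both genes, the windows of the raised stretch, those next to it and the highest and lowest flank window were named, with counts and examples from 4 lists (neighbours, MBD family, MBD7 partners, SBT5 subtilases). The members and lists were chosen with earlier results of these data known. A count of 0 allows up to 3 counts.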

Additional observations from a re-analysis of the deposited data

Results flagged for a closer look

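In 3 genes of the lists the excess of MBD7 ChIP over MBD7 input differed from that of WT ChIP over WT input by the test of the interaction (edgeR, adjusted over 37898 genes), 2 higher and 1 lower, beside 8.86% of all genes higher and 2.34% lower. They come from 12 family genes, 5 SBT5 genes, 4 partners and 6 neighbours, so the share is near that of all genes. AIR3, a subtilase of the SBT5 group, had an interaction of 0.80 ± 0.22 on the log2 scale (SE; adjusted p = 0.0239), with 0.93 in MBD7 ChIP against MBD7 input and 0.13 in WT ChIP against WT input. MBD2, listed as MBD02, had one of 1.04 ± 0.26 (SE; adjusted p = 0.0105), with 0.37 in MBD7 ChIP against MBD7 input and -0.68 in WT ChIP against WT input. MBD11 had one of -0.97 ± 0.28 (SE; adjusted p = 0.0309), with -0.74 in MBD7 ChIP against MBD7 input and 0.23 in WT ChIP against WT input. In fits that left out a library, the calls of AIR3 and MBD11 were mostly lost and that of MBD2 was lost in some. The values there ran from 0.74 to 0.97 for AIR3, 0.99 to 1.30 for MBD2 and -1.04 to -0.70 for MBD11. With library size alone the calls of AIR3 (0.45) and MBD2 (0.71) were lost too. MBD7 and SBT5.4 were not among the genes with a called interaction.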

How the results depend on the processing

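The 9 raised windows between the inputs, and the calls of MBD7 and SBT5.4 there and in MBD7 ChIP against WT ChIP, held under every alternative run. Library size alone changed most. MBD7 ChIP against MBD7 input then had 0 member windows higher and 55 lower, MBD7 at -0.32, SBT5.4 at -0.47, the 9 windows at -0.94, -0.9993, -0.97, -0.99, -0.99, -1.20, -1.14, -1.14 and -1.04, AIR3 at -0.50, MBD02 at -1.05 and MBD13 at -0.52. WT ChIP against WT input had 0 higher and 43 lower, MBD7 at 0.29, SBT5.4 at -0.13, the windows from 24095001, 24095501 and 24096501 at -0.50, -0.21 and -0.16, and MBD13 at -0.35. The median of all windows was then -2.15 and -1.74 in these comparisons, against -0.10 and -0.09 with TMM, and there was 1 lower member window in the interaction. With DESeq2's Wald test 0 member windows were lower in MBD7 ChIP against MBD7 input. The SBT5.4 interaction was 0.0607 with DESeq2 size factors, 0.0483 with the distal arm of chromosome 5 as scale and 0.0647 with DESeq2's Wald test.

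Fits that left out 1 library, in which the lone replicate is taken to vary like the other groups, gave 1 to 5 lower windows in MBD7 ChIP against MBD7 input, 1 to 4 higher windows in WT ChIP against WT input, interactions of -0.43 to 0.0241 for MBD7, the highest without replicate 2 of WT ChIP, and -0.14 to 0.26 for SBT5.4, and 7.15 to 7.30 copies. The copies were 7.72 with flanks from 10 to 100 kb, 7.95 in interior windows, 6.78 and 7.76 in the 2 sets of windows that do not overlap and 7.86 from TMM-scaled counts. With these flanks, interior and 2 sets, the stretch over flanks was 20.3, 38.6, 30.3 and 36.1 in MBD7 ChIP, 9.22, 13.4, 10.2 and 12.9 in MBD7 input and 1.19, 1.68, 1.50 and 1.66 in WT input, and 2.77 with the wider flanks in WT ChIP. The cause of these changes was not tested, beyond fewer libraries or another divisor.

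The labels number replicates alike across groups. Deviations of same-numbered libraries correlated at -0.01 to 0.03 over windows. With 2 libraries a group and few counts per window in the ChIP libraries, this cannot tell whether same-numbered libraries were paired. With the replicate as a block the counts of called member windows were unchanged at 9 between the inputs and 4 in WT ChIP against WT input, and MBD7 stood at 2.94 and 1.10 in its inputs and MBD7 ChIP comparisons. Counting each single window and list gene once per alternative, the call was kept 621 times, lost 110 times and reversed 16 times, each reversal with library size alone. WT ChIP depth limits what its windows can show. The interaction uses all groups and has no fit of fewer.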
